A study of Capra hircus with 23 samples.

Results

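The RNA of goat ear fibroblasts on day 4 of chemical induction was compared with that of the same kind of cells before induction (day 0), the middle of an 8 day course towards mammary epithelial-like cells. By the labels, this comparison held 6 of the 23 samples, 3 of day 0 and 3 of day 4, and the tables held 1 column for each of them. Columns were assigned by name, CK1, CK2 and CK3 to day 0 and 5i4d1, 5i4d2 and 5i4d3 to day 4. The features were listed under running IDs that the tables did not pair with gene names, so the fibroblast and epithelial markers could not be looked up and the cell type of the libraries was not checked.

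The cells of both days were Capra hircus ear fibroblasts, grown on Matrigel-coated plates. Day 0 was cultured in fibroblast medium, and day 4 had been kept in the induction medium BFRTV, refreshed every 2 days, for 4 days. The study's methods took the cells from ear tissue of Guanzhong dairy goats 2 to 3 months old. They named the 5i medium as Forskolin, TTNPB, VPA, Repsox and Tranylcypromine, and the columns of the induced cells carried the prefix 5i. Sample titles carried the codes DF6 and DF7, with 1 DF6 sample and 2 DF7 samples on each of the days compared. No column could be tied to either code. Separate animals or cultures were not named for the samples of either day, so the p-values reflect the spread between these libraries, which may be technical.

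As background, fibroblasts are mesenchymal cells that build the collagen-rich matrix of skin, while mammary epithelial cells form the ducts and alveoli of the gland and make milk proteins and lipids. Forskolin activates adenylyl cyclase and so raises cyclic AMP, and TTNPB is an agonist of the retinoic acid receptors. VPA, valproic acid, inhibits histone deacetylases. Repsox inhibits the type I receptor of TGF-beta, and Tranylcypromine inhibits monoamine oxidases and the histone demethylase LSD1. A change of cell identity of this kind involves both the loss of the starting programme and the gain of another. In bulk RNA, fewer cells of a type and less RNA per cell cannot be told apart.

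The day 4 libraries were alike and the day 0 libraries were not. Between 18950 and 19163 features had at least 1 count in the day 4 libraries, against 18093 in CK1, 18102 in CK2 and 15605 in CK3. The 100 most abundant features took 19.8% to 20.1% of the counts at day 4, 21.0% and 20.8% in CK1 and CK2 and 34.4% in CK3. Weighted by counts, the mean feature length was 3914 to 3971 nt at day 4, 3920 and 3855 nt in CK1 and CK2, and 2552 nt in CK3. For the 3 measures in turn, an exact two-sided permutation test between the days gave p = 0.1, 0.1 and 0.2 (Benjamini-Hochberg adjusted p = 0.15, 0.15 and 0.2), and 0.1 is the smallest p that 3 against 3 allows. The total was 21540742 counts in CK3, the lowest, and 25188653 in 5i4d2, the highest. A feature with 0 counts could still have had up to 3, which is 0.119 to 0.139 CPM, the count scaled by the total of its library. These limits and the counting intervals given later cover counting error only.

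CK3 stood further from CK1 and CK2 than CK1 and CK2 stood from day 4. Over 12914 features, the SD of the difference in log2(CPM + 1) was 0.14 for CK1 with CK2 and 2.26 for CK1 with CK3. Between CK1 or CK2 and a day 4 library it lay between 1.01 and 1.05, and between CK3 and a day 4 library between 2.40 and 2.51. At day 4, 5i4d1 and 5i4d2 differed by 0.14 and each differed from 5i4d3 by 0.38 and 0.34. The closest pairs, CK1 with CK2 and 5i4d1 with 5i4d2, had a chi-square of 2.59 and 3.49 per degree of freedom, where sampling noise alone gives about 1, and no libraries were merged. Each result is therefore given with all 6 libraries and without CK3.

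**Figure D1:**
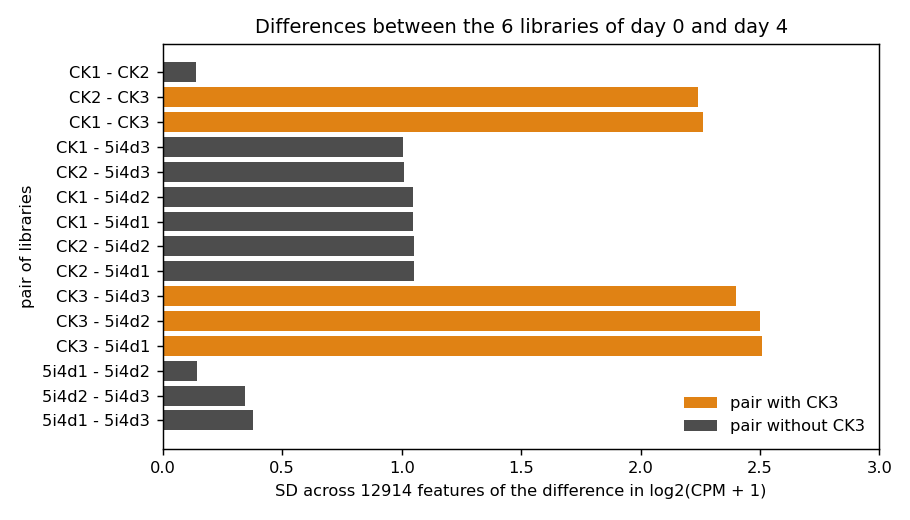
SD across 12914 features of the difference in log2(CPM + 1), 1 bar for each of the 15 pairs of day 0 and day 4 libraries, with pairs that include CK3 in orange. Every pair with CK3 lies at 2.24 or more, while the pairs of CK1 or CK2 with a day 4 library lie between 1.01 and 1.05.

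With all 6 libraries, 761 of 15266 features differed at day 4 by edgeR's quasi-likelihood test (Benjamini-Hochberg adjusted p under 0.05), 4.98% of those tested. Of these, 550 rose (3.6%) and 211 fell (1.38%). The changes called were large, with a median log2 fold change (log2FC) of 3.97 in size. In 726 features (4.76%) the log2FC was at least 2 in size, 531 of them higher (3.48%) and 195 lower (1.28%). The biological coefficient of variation was 0.669. At an unadjusted p under 0.05 (edgeR), 3536 features passed with all 6 libraries. The count of 761 rose to 9327 without CK3. It fell to 0 without 5i4d1, 0 without 5i4d2, 0 without 5i4d3, 0 without CK1 and 0 without CK2 (edgeR, 1847 to 4126 features at an unadjusted p under 0.05 in these fits). With a replicate block, taken from the number that ends each column name, it was also 0 (edgeR, 2143 at an unadjusted p under 0.05, smallest adjusted p of 0.136). DESeq2, run on the 6 libraries without a block, called 2316.

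When CK3 was left out, the same test called 9327 of 15742 features (59.2%), of which 4809 rose (30.5%) and 4518 fell (28.7%). Most of these changes were modest. A log2FC under 1 in size was found for 2265 of the higher and 2957 of the lower features, and the median size was 0.86. A log2FC of at least 2 in size was reached by 1900 features (12.1%), 1317 higher (8.37%) and 583 lower (3.7%), so higher features made up 51.6% of all calls and 69.3% of the large ones. Scaled by library totals alone, 66.5% of the 9562 calls were higher and the median log2FC of all features moved from 0.03 to 0.22. The biological coefficient of variation was 0.124, and day 0 was then the pair CK1 and CK2 alone.

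The counts without CK3 ran from 6131 (without CK2) to 11493 (without 5i4d3) when a further library was left out. Without CK1 or CK2, day 0 was a single library and the spread came from the day 4 libraries alone. Of all features tested, 11493 of 15541 were called without 5i4d3, 8231 of 15476 without 5i4d1 and 7697 of 15448 without 5i4d2. The features of large log2FC followed below were chosen with these same libraries. Their being called again therefore follows in part from that choice. The share of all features called in every one of these fits was not taken, so the counts below have no background beside them. With the replicate block, in which 5i4d3 had no day 0 partner, 11558 were called. Counting the 2 closest pairs as 1 library each by summing their counts gave 4255 calls, a fit of 1 day 0 library against 2 whose single day 0 library was taken to vary as the day 4 libraries did. Of the 1317 higher features with a log2FC of at least 2, 990 (75.2%) were called higher in all 5 fits that left out a further library and 1082 (82.2%) with the pairs summed. Of the 583 lower ones, these were 535 (91.8%) and 549 (94.2%).

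All 550 higher and all 211 lower features called with 6 libraries were called in the same direction without CK3. They made up 11.4% of the 4809 higher and 4.67% of the 4518 lower calls of that fit. Both fits share 5 libraries, so this overlap is no independent support. A set of 712 features, 523 higher and 189 lower, passed in both fits with a log2FC of at least 2 in size in each. For the 523, the median log2FC was 4.40 with 6 libraries and 4.26 without CK3. It was 4.29 when the 48 features with 0 counts in all day 0 libraries were set at the limit of 3 counts. For the 189, it was -3.62 and -3.23. The 712 were chosen with the same libraries, so their being called again when a library is left out follows in part from that choice. No share over all features stands beside the counts that follow. All 189 and 495 of the 523 were called in each of the 5 fits that left out CK3 and 1 more library, of which those without CK1 or CK2 had a single day 0 library.

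**Figure D2:**
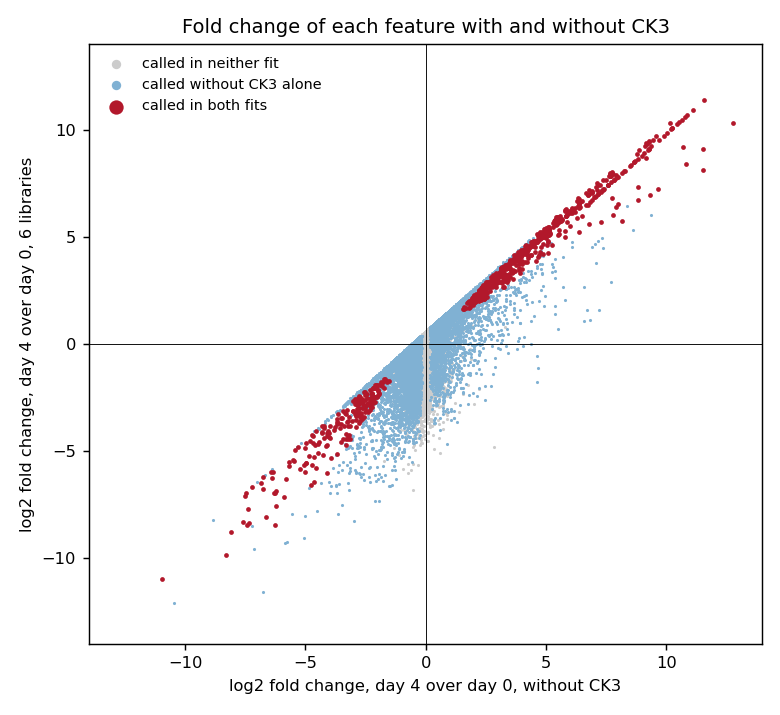
Log2FC (day 4 over day 0) of each feature tested in both fits, without CK3 on the horizontal axis and with all 6 libraries on the vertical axis; red points were called in both fits, blue points without CK3 alone and grey points in neither. The 761 red points lie at large fold changes in both directions. Blue points lie both below and above the diagonal, where adding CK3 lowered or raised the log2FC.

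By ID, 4 features are described, in each direction the one with the largest log2FC and the one with the highest CPM among those that passed in both fits without overlap between the days. This rule, which also asked for at least 5 CPM on average on the higher day, left 297 higher and 130 lower features. Among all 15266 features tested, the CPM of the days did not overlap for 42.5% in the higher and 11.0% in the lower direction.

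The feature gene19606 (3559 nt) was the most abundant of the higher features by CPM. It had 137, 139 and 51.5 CPM in CK1, CK2 and CK3, and 4869, 5146 and 5069 CPM in 5i4d1, 5i4d2 and 5i4d3. Every day 4 library lay far above every day 0 library, and the 3 day 4 values differed by little. The day 0 mean was 109 ± 49.96 CPM (SD, n = 3), and it rose to a day 4 mean of 5028 ± 143 CPM (SD, n = 3), with a log2FC of 4.95 (SE 0.53) at an edgeR adjusted p of 0.0177. Without CK3 the log2FC was 5.00 (SE 0.07) at an edgeR adjusted p of 9.15e-07. The day 1 libraries held 806 and 403 CPM, those of day 6 held 7266 and 7897 CPM, and those of day 8 held 7897, 8071 and 8212 CPM. Its level was thus already above all day 0 libraries in both day 1 libraries and was higher in each day 6 and day 8 library than in any of day 4.

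The feature gene8699 (3809 nt) had the largest fold change among the higher features. It had 0 counts in CK1 and CK2 and 1 count in CK3. At day 4 it had 20.8, 22.3 and 72.3 CPM in 5i4d1, 5i4d2 and 5i4d3, a mean of 38.5 ± 29.3 CPM (SD, n = 3). The groups did not overlap, but 5i4d3 was well above the other day 4 libraries. The ratio of the pooled levels was 2678, with a 95% counting interval of 480 to 105794. By edgeR the adjusted p was 0.0232 with 6 libraries and 0.00245 without CK3. The fitted log2FC values, 10.33 and 12.77, depend on the prior count that edgeR adds. Its course differed from that of gene19606. The day 1 libraries held 40.5 and 65.2 CPM, those of day 2 held 47.7 and 118 CPM, and those of day 3 held 33.6 and 90.4 CPM. By day 8 the values were 6.44, 7.52 and 8.06 CPM, so its mean level was highest at day 2 (82.8 CPM).

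The feature gene19399 (5933 nt) had the highest CPM among the lower features. It had 4284, 4278 and 2381 CPM in CK1, CK2 and CK3, and 477, 612 and 1021 CPM in 5i4d1, 5i4d2 and 5i4d3. The groups did not overlap, although CK3 was lower than the other day 0 libraries and 5i4d3 higher than the other day 4 libraries. The day 0 mean was 3648 ± 1097 CPM (SD, n = 3), and it fell to a day 4 mean of 704 ± 283 CPM (SD, n = 3). Its log2FC was -3.07 (SE 0.61) at an edgeR adjusted p of 0.0474, and without CK3 it was -2.79 (SE 0.30) at an edgeR adjusted p of 0.000410. With 6 libraries this call was lost with RLE normalization (edgeR adjusted p = 0.0705), with library totals alone (0.0564), with no low-count filter (0.0558) and with a mean of 5 CPM or more (0.0749). It had not yet fallen at day 1, with 4322 and 9772 CPM. At day 2 the level was 1835 CPM in 5i2d1 but 4377 CPM in 5i2d2, above every day 0 library. The day 3 libraries held 909 and 2419 CPM, and those of day 8 held 118, 133 and 115 CPM.

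The feature gene25654 (4560 nt) had the largest fold change among the lower features. It had 236, 223 and 105 counts in CK1, CK2 and CK3, or 9.85, 9.11 and 4.87 CPM. At day 4 it had 0 counts in all 3 libraries, so that against 3 counts over the day 4 group its level was at least 191-fold lower. The edgeR adjusted p was 0.0194 with 6 libraries and 9.06e-05 without CK3. In both day 1 libraries its level was already near 0 (0.0418 and 0.0383 CPM), and the highest value of a later library was 0.0900 CPM. With 6 libraries, all 4 features lost their calls under the replicate block (edgeR adjusted p of 0.136 to 0.185).

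**Figure D3:**
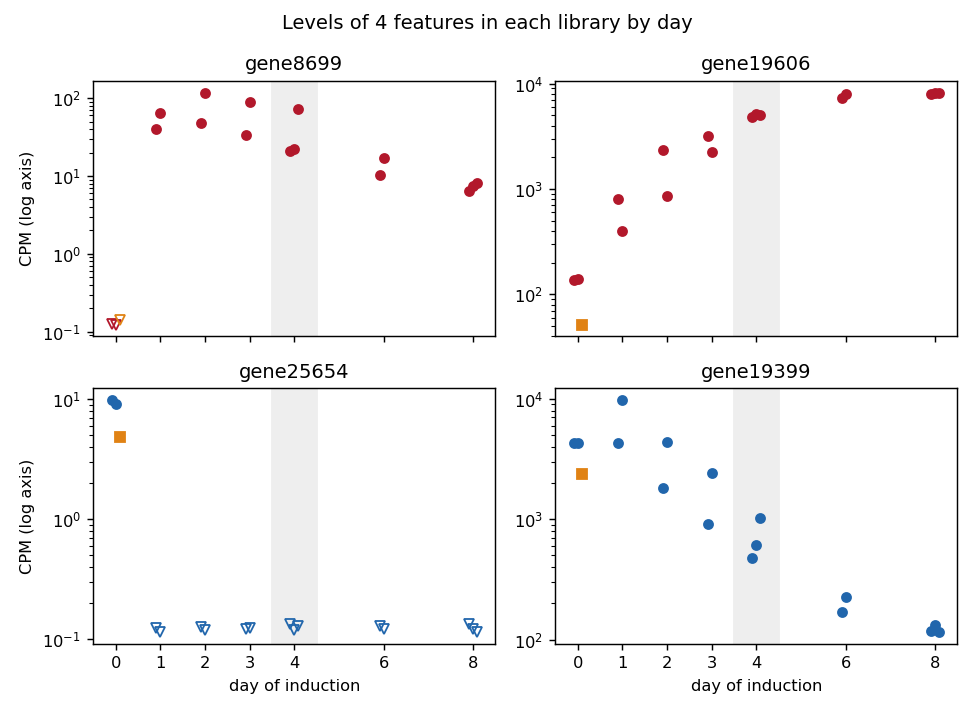
Level of 4 features in CPM (log axis) by day of induction, 1 point per library, with day 4 shaded and CK3 as an orange mark; a library with under 3 counts is an open triangle placed at the CPM of 3 counts. gene19606 rose up to day 8 and gene8699 was highest at day 2. The mean of gene19399 fell after day 1, with 4377 CPM still in 5i2d2, and gene25654 had 0 counts at day 4.

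Some features had counts on one side only. There were 63 features with no count in any of the 3 day 0 libraries but at least 10 counts in each day 4 library, and 7 features of the opposite kind. Their levels were low, with a median of 1.58 CPM and a highest mean of 16.7 CPM at day 4 for the 63. All 63 were called without CK3, where 59.2% of all features tested were called. With 6 libraries 48 of them were called, where the share over all features was 4.98%. The 63 were chosen from the same counts, so these calls are no further support. Counts were present in both day 1 libraries for 35 of the 63, in both day 2 libraries for 50, in both day 3 libraries for 62 and in all 3 day 8 libraries for 59. Most of these features were thus detected before day 4. When CK3 was left aside, the numbers were 81 and 17, and CK3 held counts for 18 of the 81.

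The place of CK3 between the days was measured on features chosen without it. On log2(CPM + 1), the mean of CK1 and CK2 was set to 0% and the mean of day 4 to 100%. Of the 1317 features with a log2FC of at least 2, CK3 lay below 0% for 884 (67.1%), that is further from day 4 than CK1 and CK2, and at 50% or beyond for 7.52%. Of the 583 lower features, CK3 lay at 50% or beyond for 54.4%, that is nearer to day 4, and past 100% for 218 (37.4%). CPM in CK3 were lower at the median, with a median log2(CPM + 1) of 1.97 over the 15742 features tested against 4.38 and 4.39 in CK1 and CK2, and its TMM scaling factor was 0.379 against 1.12 and 1.13. With CPM divided by these factors, the shares at 50% or beyond were 18.8% of the higher and 40.1% of the lower features. The share of higher features below 0% was then 55.7%, that of lower features past 100% was 21.6%, and the median place of CK3 among the lower features was 4.91%, close to CK1 and CK2. Of the lower features, 28.5% lay below 0% on CPM and 48.9% with CPM divided by the factors. On either scale, CK3 lay nearer to day 4 for a larger share of the lower than of the higher features. With the factors, however, more of the lower features lay below 0% than at 50% or beyond.

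**Figure D4:**
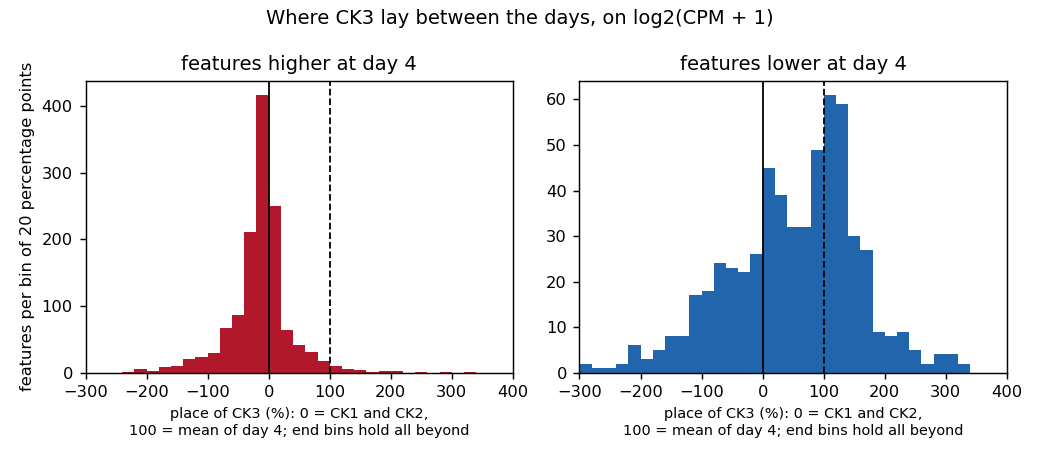
Number of features per bin of 20 percentage points by the place of CK3 between CK1 and CK2 (0%, solid line) and day 4 (100%, dashed line) on log2(CPM + 1), for the 1317 higher (left) and 583 lower (right) features chosen without CK3; the vertical axes differ. The higher features centre just below 0% (median -9.38%), while the lower ones spread widely around a median of 63.4%, which was 4.91% with CPM divided by the TMM factors.

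The third day 4 library was placed in the same way, on features called without CK3 and 5i4d3 with a log2FC of at least 2 in size. Of the 1303 higher features, 1299 were also above the mean of CK1 and CK2 in 5i4d3, and of the 627 lower ones 626 were below it. The median place of 5i4d3 was 89.7% of the change seen in 5i4d1 and 5i4d2 for the higher and 93.7% for the lower features. Over all 15541 features of that fit, 5i4d3 lay on the same side of CK1 and CK2 as 5i4d1 and 5i4d2 for 87.5%. The same CK1 and CK2 served for the choice and for the placing, so agreement in side is favoured by the shared baseline.

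The changed features spanned the range of levels and lengths unevenly. The FPKM and count tables together gave 1 length for each feature. In the fit without CK3, the share of features called higher was 23.8% in the shortest quartile (66 to 1772 nt) and 36.4% in the longest (4528 nt or more). The share called lower was 28.6% and 26.6%. For changes with a log2FC of at least 2 the higher shares were closer, 7.42% and 8.94%. With 6 libraries the share called higher was 3.09% in the shortest and 3.75% in the longest quartile, while the median log2FC of all features in the quartile was -0.44 and 0.40. Without CK3 these medians were -0.02 and 0.11. The counts of CK3 came from shorter features, and whether this bears on the difference in the medians was not tested. By level, taken as the mean of both days without CK3, 36.5% of the lowest quartile and 21.5% of the highest quartile were called higher in the fit without CK3. The shares called lower were 13.0% and 44.7%. With 6 libraries, 8.30% of the lowest and 1.02% of the highest quartile were called higher, against 1.73% and 1.18% called lower. The larger share of lower calls among abundant features was thus seen only without CK3. Without CK3, large changes were more frequent among scarce features. At a log2FC of at least 2 in size, 20.4% of the lowest quartile were higher and 5.79% lower, and 2.41% and 3.13% of the highest quartile. Calls came almost wholly from IDs with the prefix gene, since only 3 id and 12 rna features were tested in the fit without CK3. Of the 12, 6 rose and 1 fell.

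The 712 features were followed over the other days as a description, since they were chosen with day 0 and day 4. The median log2(CPM + 1) of the 523 higher features was 0.27 in CK1 and CK2 and 0.07 in CK3. It was 1.39 and 0.91 in the day 1 libraries, 2.15 and 1.52 in those of day 2 and 2.69 and 2.18 in those of day 3. The day 4 libraries had 2.99, 3.03 and 2.75. The level was still higher at day 6 (3.45 and 3.27) and day 8 (3.64, 3.55 and 3.51). The 189 lower features stood at 4.50 and 4.54 in CK1 and CK2 and 3.54 in CK3, and fell to 3.08 and 3.29 in the day 1 libraries and to 1.71, 1.58 and 1.75 in those of day 4. The day 8 values were 1.06, 1.12 and 1.10. The median over all 15742 features tested without CK3 stayed between 4.21 and 4.63 from day 1 to day 8. At days 1, 2 and 3, the library numbered 1 had moved further than the library numbered 2 in both sets. The libraries numbered 2 also differed as wholes, with a mean feature length weighted by counts of 3259, 3560.5 and 3865 nt on these days. Those numbered 1 had 3985, 3970 and 4028 nt. Whether this bears on the difference in level was not tested.

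**Figure D5:**
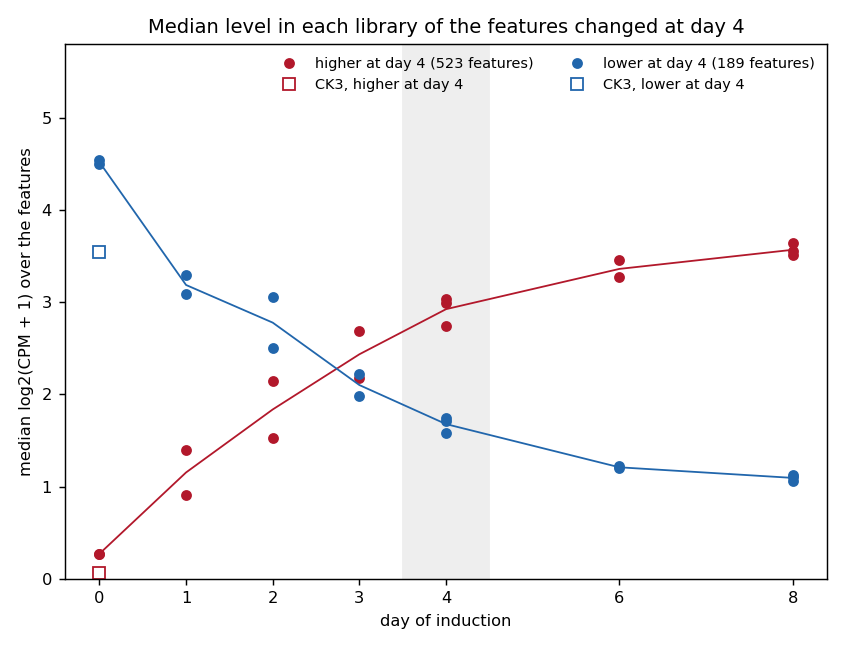
Median log2(CPM + 1) in each library against the day of induction, for the 523 features higher (red) and the 189 lower (blue) at day 4 in both fits; filled circles are libraries, open squares CK3, and lines join the means of the libraries of a day without CK3. Day 4, shaded, lies between the levels of day 3 and day 6 in both sets, with 2.75 to 3.03 for the higher and 1.58 to 1.75 for the lower features.

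For most of the 712 features the most extreme mean level fell on another day than day 4, and no share over all features was taken. The mean level was highest at day 8 for 275 of the 523 higher features (52.6%), at day 6 for 90 and at day 4 for 72 (13.8%). For 86 features it was highest at day 1, 2 or 3, as for gene8699. Of the 189 lower features, 94 (49.7%) were lowest at day 8, 47 at day 6 and 22 (11.6%) at day 4. Libraries of the days differ in number, so these counts are a description.

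The 523 higher features took 0.175% and 0.174% of the counts of CK1 and CK2, 0.0575% of CK3 and 2.51% to 2.59% of the day 4 libraries. By day 8 they took 4.34% to 4.77%. The 189 lower features took 2.16%, 2.17% and 1.47% of CK1, CK2 and CK3, 0.245% to 0.337% at day 4 and 0.205% to 0.219% at day 8. In both sets the share at day 4 lay between those of day 0 and day 8. A few features carried these shares. Of the 523, 40 had a mean of 100 CPM or more at day 4 and 3 had 1000 CPM or more, and the 10 most abundant held 49.5% of their CPM. Of the 189, 42 had a mean of 100 CPM or more at day 0 and 3 had 1000 CPM or more, and the 10 most abundant held 50.01%. CPM are not scaled to feature length, so these levels do not compare features of unlike length.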

How the data were processed

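Total RNA was depleted of ribosomal RNA and sequenced on an Illumina HiSeq instrument. The authors deposited raw counts for each feature and, in another table, FPKM. Processing notes of the submitters listed DESeq2 1.16.1, FastQC 0.10.1 and HTSeq, the last with no version, and did not give their roles. Which aligner, genome build and annotation were used is not given in the sources used here. There were 28931 features and 17 libraries with counts. For all 22657 features of the FPKM table, FPKM equalled the count over the library total and 1 whole-number length per feature (relative tolerance 1e-06). Of the IDs, 0 matched the 28911 RefSeq genes (assembly ARS1.2), so no gene is named and the marker lists were not tested. The 6 samples of passaged induced cells and natural mammary epithelial cells were not analysed here.

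The test on counts was that of edgeR 4.0.16 under R 4.3.3 (filterByExpr, TMM, quasi-likelihood F test, Benjamini-Hochberg over all features tested), on the 6 libraries and again without CK3. SE was the log2 fold change (log2FC) over the square root of F. CPM were counts over the library total, without TMM factors. Alternatives used DESeq2 1.42.0, limma 3.58.1 on log2(FPKM + 1) and log2(FPKM + 0.1), other scalings, filters and thresholds, and left out each library. Summing near-identical libraries, the TMM-scaled place of CK3 and the split by the level of both days were added after seeing the data. Tests were run on simulated counts first. Features given by ID had to pass in both fits with a log2FC of at least 2 in size, 5 CPM on average in the higher group and no overlap. The comparison, lists and rules were chosen with earlier results of these data known.

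Columns were tied to days, not to labelled samples. Same-numbered columns deviated together from the mean of their day (correlations of 0.233, 0.232 and 0.272 for numbers 1, 2 and 3 over 12914 features). CK1 correlated with 5i4d2 at 0.240 and CK2 with 5i4d1 at 0.226, so numbers 1 and 2 could not be told apart. Deviations from a mean of 3 libraries are also not independent of each other. The replicate block by number was run because of these values, and the labels do not state a pairing.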

Additional observations from a re-analysis of the deposited data

How the results depend on the processing

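With 6 libraries, 761 calls (72.3% higher) became 2316 with DESeq2 (56.4% higher), 502 with no low-count filter, 288 with a mean of 5 CPM or more, 1673 with limma on log2(FPKM + 1) (84.5% higher), 1214 with limma on log2(FPKM + 0.1) (81.6% higher), 4921 in one fit of all days (44.0% higher, so the balance turned) and 2353 with the unadjusted threshold of the study (46.6% higher). The study used that threshold, a log2 size of 2 and an unadjusted p under 0.05, with DESeq on long noncoding RNAs of day 8 against day 0. Here it was put on the edgeR values of all features tested, so the counts do not compare with those of the study. With library totals alone 78.0% of the calls were higher. Leaving out single libraries gave 0 to 9327 calls, 51.6% of them higher without CK3. The replicate block gave 0 calls and so did summing the near-identical libraries (edgeR, 1513 at an unadjusted p under 0.05), an alternative added after seeing the data. Without CK3, 9327 calls (51.6% higher) became 5375 in one fit of all days (56.9% higher), 4255 with the near-identical libraries summed, 1920 at the study's threshold (69.6% higher) and 1900 with an adjusted p and a log2 size of 2 (69.3% higher). The share higher was 66.5% with library totals alone, 65.6% with limma on log2(FPKM + 1) and 66.2% on log2(FPKM + 0.1). Leaving out a further library gave 6131 to 11493 calls, 49.6% to 51.6% of them higher, and the replicate block gave 11558. That block moved no count without CK3 by over 1.5 times. A threshold on log2 size added to the adjusted p, and a minimum of 20 counts, pass fewer features by their construction. For all other differences the cause was not tested. Features with counts at day 4 only numbered 63, and 122 with a minimum of 5 counts and 33 with 20. Those at day 0 only numbered 7, and 12 with a minimum of 5 counts, 3 with 20 and 17 without CK3. The 4 features given by ID kept their direction in every setting that gave them a value, and gene25654 had none with a mean of 5 CPM or more. They were chosen for passing in both fits, and 59.2% of all features were called without CK3. Calls they keep without CK3 therefore follow in part from that choice. Without CK3 they stayed called in all 59 alternatives that gave a value, and with 6 libraries they were lost in 32 of 63. At the depth of these libraries a count of 0 leaves levels up to 0.119 to 0.139 CPM undetected, and the labels do not give the number of independent cultures.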
